A study of Homo sapiens with 12 samples.

Results

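The VEGF and angiopoietin system was followed here through 10 genes, chosen by name as rows of the deposited count table of 57169 genes: the ligands VEGFA, VEGFB, VEGFC, ANGPT1 and ANGPT2, and the receptors FLT1, KDR, FLT4, TEK and TIE1. They were measured by RNA-seq in tumours grown from SK-ES1, a long-established human line of Ewing sarcoma that carries the fusion transcription factor EWSR1-FLI1. The 6 control libraries came from xenografts whose genotype the labels give as wild-type, and 6 libraries from xenografts with a knock-down of RING1B, a ubiquitin ligase of Polycomb repressive complex 1 encoded by RNF2. All 12 share the SK-ES1 line. The sources used here do not give the silencing construct, any control construct, the host animal with its strain and age, or the time of growth. They do not state whether the libraries came from separate animals, so p-values measure only the spread between these samples.

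VEGF ligands are secreted dimers that bind receptor tyrosine kinases on endothelial cells: VEGFA acts mainly through KDR, FLT1 binds VEGFA and VEGFB and also exists as a soluble decoy, and FLT4 is the receptor of VEGFC in lymphatic endothelium. The angiopoietins bind TEK, also called TIE2: ANGPT1, made by perivascular and other mesenchymal cells, activates it and steadies vessels, whereas ANGPT2, released by endothelium, often opposes ANGPT1. TIE1 is an orphan partner of TEK. In a xenograft the vessels are built by the host, while the tumour cells can make ligands.

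Depth and labels were examined first. Total counts ran from 23859184 to 26678325 per library, and 3 counts, taken as the limit below which a level of 0 cannot be told from a low one, were worth 0.109 to 0.128 CPM (read counts expressed relative to each library's scaled total). RNF2 was checked first, and its 6 knock-down values (17.7 ± 4.56 CPM, SD) all lay under its 6 control values (47.6 ± 8.44 CPM, SD), with a log2 fold change of −1.43 (SE 0.174, edgeR adjusted p = 0.00347). Knockdown 4, knockdown 5 and control 6 stood apart from the rest, with median Spearman correlations with the other libraries of 0.965, 0.969 and 0.972 against 0.980 to 0.987 for the remaining 9. Of 12 genes that mark Ewing sarcoma cells, CCND1, FCGRT, PRKCB and STEAP1 were abundant, with lowest library values of 1007, 452, 358 and 124 CPM. CD99 was listed at 0 in all libraries, which cannot be read as absence, because the handling of multi-mapping reads is not given. The summed level of that list was 2417 to 2888 CPM in control and 2880 to 3406 CPM in knock-down, with 10 of its 11 tested genes positive and a median of 0.34 on the log2 scale, against 52.4% positive and a median of 0.01 over all genes. Only 1 of the 11 was called by edgeR, NPY1R, a neuropeptide Y receptor (named after its values were seen), with means of 41.3 ± 5.54 CPM across controls against 73.3 ± 13.1 CPM after knock-down (SD, n = 6, edgeR adjusted p = 0.0151).

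Across the 10 genes, 7 passed the filter on low counts and were tested: VEGFA, VEGFB, ANGPT1, FLT1, KDR, FLT4 and TIE1. None of the 7 was called at an adjusted p below 0.05 by edgeR's quasi-likelihood test, in a comparison where 49 of 16519 genes (0.297%) were called, 29 with higher and 20 with lower levels after knock-down. At an unadjusted p below 0.05 there were 3 of the 7, ANGPT1, FLT1 and FLT4, against 12.7% of all genes tested. DESeq2, which gave no adjusted p for FLT1, called 1 of the 7, ANGPT1, against 2.22% of the genes it tested. The limma-voom fit called 0 of the 7 and 56 of all 16519 genes. ANGPT1 was also the only tested one of the 10 whose groups did not overlap. It was lower in all 6 knock-down libraries, a pattern seen in 0.575% of all genes. VEGFC, ANGPT2 and TEK did not pass the filter and are given as values. With no low-count filter, edgeR called 0 of the 10.

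**Figure D1:**
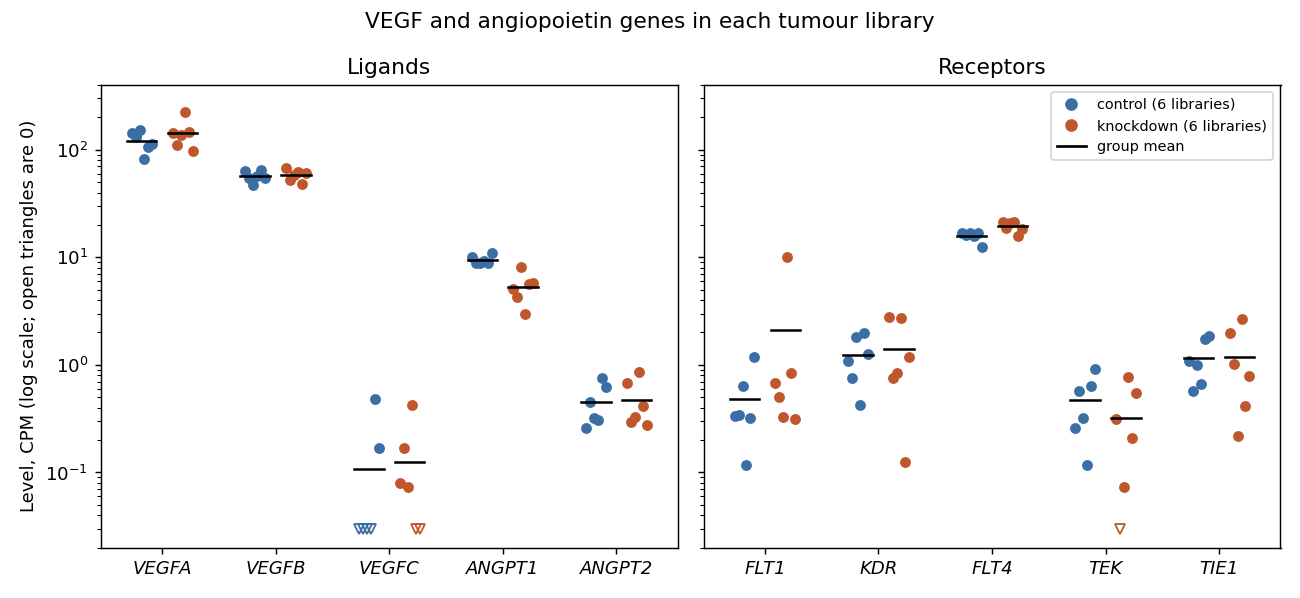
Level of each ligand (left) and receptor (right) in CPM on a log axis, with 1 point per library, 6 control in blue and 6 knock-down in orange, and a black bar at each group mean; open triangles mark libraries at 0. The ANGPT1 groups do not overlap, and the FLT1 level of 10.1 CPM in knockdown 4 lies far from the other libraries.

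Levels can be compared between genes only after scaling by length. Expressed as CPM per kilobase of annotated exon, the control order was VEGFB (36.8 ± 4.32, SD, n = 6), VEGFA (8.37 ± 1.77), FLT4 (1.78 ± 0.187), ANGPT1 (1.33 ± 0.122), KDR (0.186 ± 0.0923), TIE1 (0.172 ± 0.0804), TEK (0.0979 ± 0.0613), ANGPT2 (0.0671 ± 0.0294), VEGFC (0.0444 ± 0.0797) and FLT1 (0.0387 ± 0.0298). VEGFB, VEGFA and FLT4 did not overlap one another in either group. FLT4 and ANGPT1 overlapped in control, at 1.41 to 1.90 and 1.24 to 1.53, but not in knock-down, at 1.78 to 2.42 and 0.418 to 1.14 CPM per kilobase. From KDR down to FLT1, neighbours in the order overlapped in both groups. The size of the lead of VEGFB over VEGFA depended on the length used: the exons of VEGFA together span 14431 bases, but its longest coding transcript has 3535. With the longest coding transcript of each gene, control levels were 41.2 ± 4.84 for VEGFB and 34.2 ± 7.24 for VEGFA (SD, n = 6). By control mean, that length also placed TIE1 (0.296) above KDR (0.202) and FLT1 (0.0686) above VEGFC (0.0521).

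**Figure D2:**
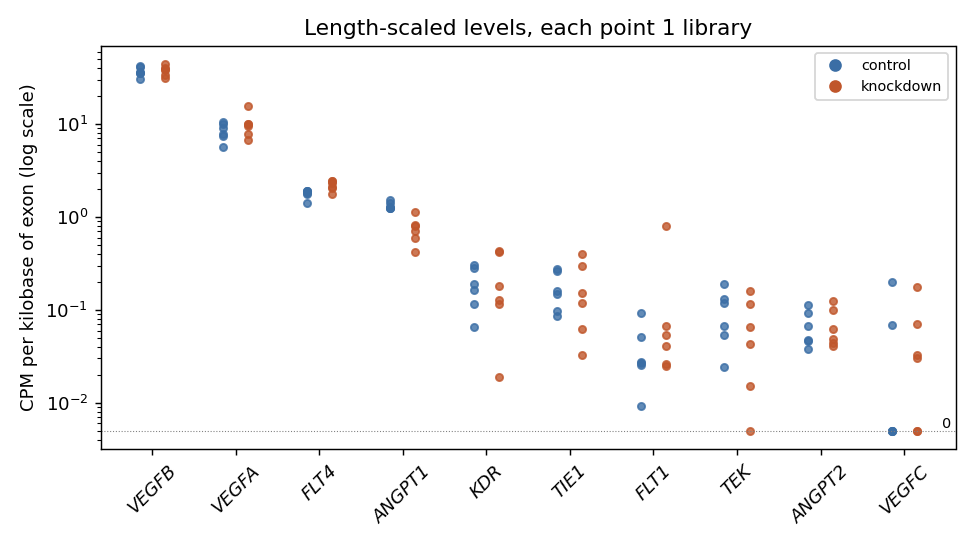
CPM per kilobase of annotated exon on a log axis for the 10 genes, ordered by their mean over the 12 libraries, with 1 point per library (6 control, 6 knock-down) and values of 0 on the dotted line. VEGFB and VEGFA lie above the other 8 genes, FLT4 and ANGPT1 follow at about 1 to 2 in control, above the remaining 6 there, while in knockdown 4 FLT1 (0.806) is above ANGPT1 (0.418).

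VEGFA, the main driver of vessel growth and a target of hypoxia-inducible factors, lies on chromosome 6 from 43770184 to 43786487 (plus strand of hg38). Levels of VEGFA ran from 82.1 through a median of 121 to 151 CPM in control, and from 96.6 through 139 to 224 CPM in knock-down. The groups overlapped and the highest library was knockdown 4. The log2 fold change was 0.24 (SE 0.190, 95% interval −0.164 to 0.646, edgeR adjusted p = 0.628), so that group means of 121 ± 25.6 and 143 ± 44.3 CPM (SD, n = 6) differed by less than the spread between libraries. Without knockdown 4 the knock-down mean was 126 ± 21.3 CPM (n = 5) and the log2 fold change 0.07, and without control 6, knockdown 4 and knockdown 5 it was −0.01. An antisense gene, AL136131.3, shares 188 exon bases with VEGFA and had 0 counts in every library.

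VEGFB, a ligand of FLT1 linked to fatty acid handling and cell survival, lies on chromosome 11 from 64234538 to 64238793 (plus strand). Its libraries varied little, from 46.7 through a median of 55.8 to 65.2 CPM in control and from 47.9 through 59.4 to 67.7 CPM in knock-down. The groups overlapped almost fully. The group means were 56.9 ± 6.68 and 58.0 ± 7.10 CPM (SD, n = 6), a log2 fold change of 0.03 (SE 0.109, 95% interval −0.204 to 0.260, edgeR adjusted p = 0.945). On the length-scaled levels VEGFA made up 18.6% ± 4.35 of the summed VEGFA, VEGFB and VEGFC in control and 20.7% ± 4.81 in knock-down (SD, n = 6). With the longest coding transcripts that share was 45.03% ± 6.99 in control and 48.3% ± 7.21 in knock-down (SD, n = 6), so its size rests on the length used.

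VEGFC, the lymphatic growth factor that must be cleaved to bind FLT4 tightly, lies on chromosome 4 from 176683538 to 176792727 (minus strand). Control libraries 1 to 4 and knockdown 5 and 6 held 0 counts. Control 5 held 12 counts and control 6 held 4, and knockdown 1 to 4 held 2, 4, 2 and 10. The highest levels, 0.477 CPM in control 5 and 0.426 CPM in knockdown 4, were under 1 CPM, and most libraries were near the limit that 3 counts set. The filter left VEGFC out, so its groups were not compared by a test in the filtered fit.

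ANGPT1, the activating ligand of TEK, gave the clearest separation of the 10. It lies on chromosome 8 from 107249482 to 107498055 (minus strand), and no exon of it shares bases with another gene. Control libraries ran from 8.84 through a median of 9.05 to 10.9 CPM, and knock-down libraries from 2.98 through 5.37 to 8.12 CPM. Every knock-down library was below every control library, with knockdown 4 the lowest (70 counts) and knockdown 3, with 223 counts, nearest to the controls. The means were 9.48 ± 0.867 and 5.32 ± 1.72 CPM (SD, n = 6), 1.78-fold lower in knock-down, with a log2 fold change of −0.83 (SE 0.198, 95% interval −1.25 to −0.41). The unadjusted p of 0.000754 ranked 131 among all genes, and the edgeR adjusted p was 0.0951. The call depended on the tool. ANGPT1 was called by DESeq2 (log2 fold change −0.84, adjusted p = 0.00441) but not by limma-voom (adjusted p = 0.0729).

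Some other settings also passed the threshold for ANGPT1. With the number in the library titles as a random effect, limma-voom gave −0.87 (adjusted p = 0.0423), in a fit that called 0.551% of genes, but the estimated correlation within numbers was negative (−0.125). With counts summed by title number, edgeR gave an adjusted p of 0.0769 and no call. With the mean of endothelial markers as a covariate, edgeR gave −0.95 (adjusted p = 0.0322), in a fit that called 0.908%. Without knockdown 3 it gave −1.01 (adjusted p = 0.0477), in a fit that called 0.185%. Leaving out the other libraries in turn left the log2 fold change negative and the adjusted p above the threshold, up to 0.206. Without control 6, knockdown 4 and knockdown 5, a choice made after seeing the data, it was −0.66 (adjusted p = 0.145). The titles also carry a letter, D or E. Among D libraries the 2 controls averaged 9.69 CPM and the 4 knock-down tumours 5.78 CPM, and among E libraries the 4 controls averaged 9.38 CPM and the 2 knock-down tumours 4.39 CPM. Because the groups did not overlap over all 12 libraries, they could not overlap within a letter, so that is no further check. With the letter as a covariate the edgeR adjusted p was 0.119.

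**Figure D3:**
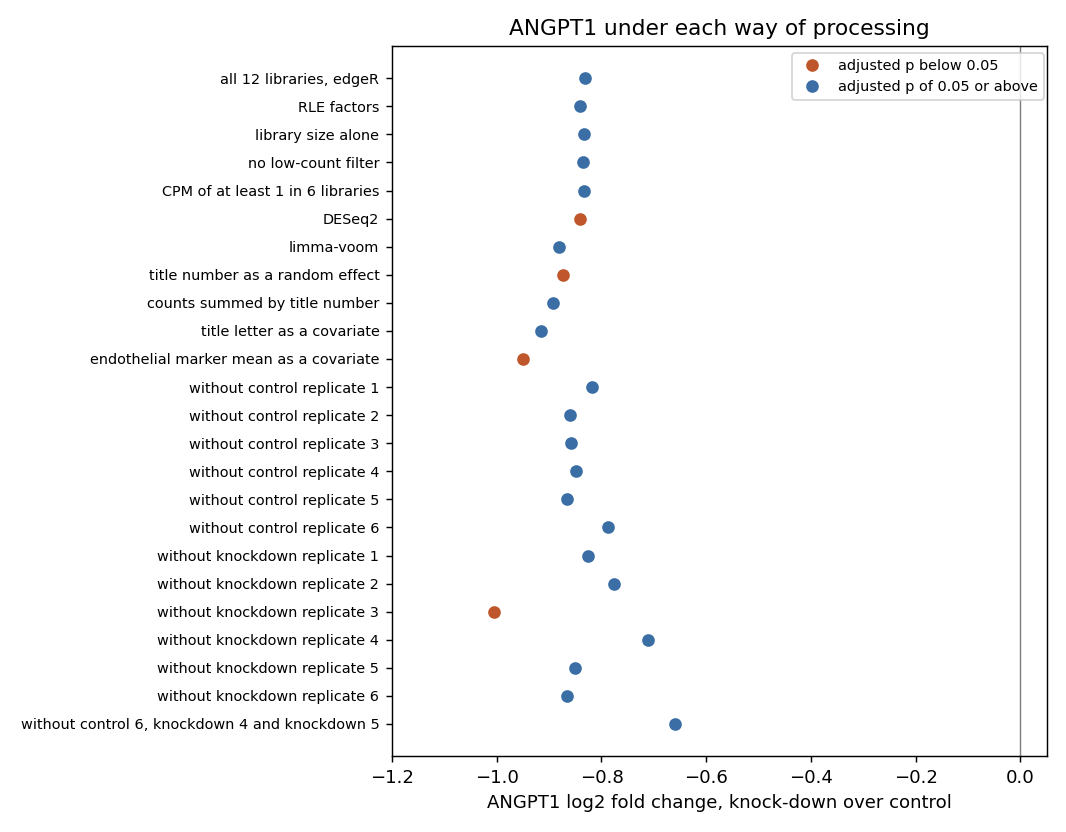
Log2 fold change of ANGPT1, knock-down over control, under each way of processing the counts, with orange points where the adjusted p was below 0.05 and blue points otherwise. All values are negative, from −1.01 to −0.66, while the call changes with the setting.

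ANGPT2, the context-dependent antagonist of TEK, was low in all libraries. It ran from 0.260 through a median of 0.387 to 0.756 CPM in control and from 0.276 through 0.373 to 0.852 CPM in knock-down. The groups overlapped, and the filter left ANGPT2 out of the test with all 12 libraries. Without a low-count filter, edgeR gave ANGPT2 a log2 fold change of 0.05 (adjusted p = 0.994). Its locus on chromosome 8, from 6499651 to 6563409 (minus strand), shares 78 exon bases with MCPH1 on the opposite strand, a gene with 668 to 1037 counts, so without a stated strand setting a few of its reads may belong to MCPH1. ANGPT1 made up 95.2% ± 2.04 of the length-scaled sum of the angiopoietins in control and 90.3% ± 7.17 in knock-down (SD, n = 6), with the lowest share, 76.9%, in knockdown 4.

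Receptors were described apart from the ligands, and the vessel markers beside them came first. Of 28 endothelial markers other than TIE1, 13 passed the filter and 0 were called by edgeR, with 5 of them positive and a median of −0.03 on the log2 scale against 0.01 over all genes. Defining markers were scarce: PECAM1, an adhesion molecule of endothelial junctions, was at 0 to 0.724 CPM, CDH5 at 0.291 to 2.17 CPM, VWF at 0 to 1.05 CPM and CD34 at 0.125 to 1.70 CPM. GPIHBP1 was at 0 in every library, and 12 of the 28 were below 1 CPM in all libraries. The summed level, 157 to 277 CPM in control and 154 to 228 CPM in knock-down, came mostly from ENG (48.9 to 117 CPM), EGFL7 (46.5 to 82.5), SOX18 (8.96 to 44.5) and SHANK3 (7.79 to 17.6). The mean log2 CPM of the 13 was 2.15 ± 0.168 in control and 2.04 ± 0.365 in knock-down (SD, n = 6), a difference of −0.12 (two-sided exact permutation test, p = 0.491). It was lowest in knockdown 5 (1.61) and highest in knockdown 4 (2.53). In bulk tissue, fewer vessel cells and less RNA per cell cannot be told apart, and neither can human reads from host reads that align to human genes.

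The windows before the starts of KDR, FLT1 and TIE1, 3 receptors of endothelium, are shown because endothelial genes are known to be driven by ETS family factors, whose core motif is GGAA, and the FLI1 part of the fusion belongs to that family. Capitals mark GGAA or its complement TTCC. The sequences are from RefSeq (GRCh38.p14), written 5′ to 3′ on the strand of the gene, at chr4:55125596-55125845 for KDR, chr13:28495146-28495378 for FLT1 and chr1:43300732-43300981 for TIE1.
KDR: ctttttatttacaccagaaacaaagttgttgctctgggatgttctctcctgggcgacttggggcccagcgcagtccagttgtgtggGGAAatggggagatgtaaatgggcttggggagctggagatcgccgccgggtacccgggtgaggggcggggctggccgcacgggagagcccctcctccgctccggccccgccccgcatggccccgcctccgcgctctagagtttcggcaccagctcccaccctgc
FLT1: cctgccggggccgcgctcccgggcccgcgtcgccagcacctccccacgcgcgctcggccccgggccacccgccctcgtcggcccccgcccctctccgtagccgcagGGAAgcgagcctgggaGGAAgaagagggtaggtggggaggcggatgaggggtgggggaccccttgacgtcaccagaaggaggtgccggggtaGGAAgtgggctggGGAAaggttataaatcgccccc
TIE1: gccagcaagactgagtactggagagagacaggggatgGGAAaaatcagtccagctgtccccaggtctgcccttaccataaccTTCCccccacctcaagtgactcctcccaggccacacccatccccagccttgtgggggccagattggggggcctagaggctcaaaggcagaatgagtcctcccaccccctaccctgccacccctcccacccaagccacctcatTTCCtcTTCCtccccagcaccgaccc
Matches on either strand numbered 1 in KDR, 4 in FLT1 and 4 in TIE1. TEK has 2 windows, which are not printed. The window with 3 matches runs into the annotated gene, and that with 6 lies wholly within it. The motif is common: 92.7% of 35116 windows of 250 bases held at least 1, the median was 3 a window, and 34.3% held at least 4. The repeat GGAAGGAA, searched on both strands, was in 3.06% of all windows and in none of the windows of the 6 genes of the 10 that have one. A match describes letters only.

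FLT4, the receptor of VEGFC, lies on chromosome 5 from 180601506 to 180649624 (minus strand) and had the highest length-scaled level of the 5 receptors in every library. Control libraries ran from 12.5 through a median of 16.4 to 16.8 CPM, and knock-down libraries from 15.7 through 19.7 to 21.5 CPM. The groups overlapped through knockdown 5, the lowest of its group, while control 6 was the lowest of all. Group means of 15.8 ± 1.66 and 19.4 ± 2.22 CPM (SD, n = 6) gave a log2 fold change of 0.30 (SE 0.115, 95% interval 0.05 to 0.54, unadjusted p = 0.0198), which was not called (edgeR adjusted p = 0.298). By title letter the means were 16.2 and 19.2 CPM in D and 15.5 and 19.9 CPM in E libraries, control first. FLT4 was 78.6% ± 8.82 of the length-scaled receptor total in control and 80.7% ± 13.02 in knock-down (SD, n = 6).

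Per kilobase of exon FLT4 was at 1.41 to 2.42 CPM, and the 28 endothelial markers lay on both sides of it. In each of the 12 libraries 22 of them were below FLT4, among them PECAM1 (0 to 0.0933), CDH5 (0.0479 to 0.357) and VWF (0 to 0.101), and 3 were above it, EGFL7 (18.2 to 32.3), ENG (12.4 to 29.8) and SOX18 (4.81 to 23.8). CLDN5, EMCN and RASIP1 were above it in some libraries and below it in others. Which cells the FLT4 reads came from was not tested. Lymphatic endothelial markers were scarce as well: PROX1, which defines that lineage, was at 0 to 0.0234 and LYVE1, a hyaluronan receptor, at 0.0432 to 0.249 CPM per kilobase. The 6 lymphatic markers summed to 0.667 to 8.27 CPM in control and 1.02 to 4.73 CPM in knock-down. PDPN, also made by other cells, was at 0.169 to 7.92 CPM and over 50% of that sum in 8 of 12 libraries, and 5 of the 6 were below 1 CPM in all libraries. Across the 12 libraries the log2 CPM of FLT4 had a Pearson r of 0.25 with the endothelial mean, and of −0.06 without the 2 libraries farthest from the median of that mean.

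FLT1, the high-affinity receptor of VEGFA and VEGFB, lies on chromosome 13 from 28300344 to 28495145 (minus strand). In control it ran from 0.116 through a median of 0.338 to 1.17 CPM, and in knock-down from 0.315 through 0.590 to 10.1 CPM. A single library set the group difference: knockdown 4 held 238 counts, 78.3% of the knock-down counts of FLT1, and the other 5 lay within the control range. The means were 0.487 ± 0.375 and 2.13 ± 3.93 CPM (SD, n = 6), with a log2 fold change of 2.12 (SE 0.869, 95% interval 0.27 to 3.98, edgeR adjusted p = 0.328). Without knockdown 4 the knock-down mean was 0.532 ± 0.224 CPM (n = 5) and the log2 fold change 0.13 (edgeR adjusted p = 0.934).

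KDR, the main signalling receptor of VEGFA, lies on chromosome 4 from 55078259 to 55125595 (minus strand). It ran from 0.426 through a median of 1.17 to 1.99 CPM in control and from 0.125 through 1.01 to 2.81 CPM in knock-down. Knockdown 1 and knockdown 4 were the highest of the 12 libraries and knockdown 5 the lowest, so the knock-down libraries spanned the control range on both sides. The log2 fold change was 0.20 (SE 0.539, 95% interval −0.947 to 1.35, edgeR adjusted p = 0.910), and it was −0.09 without knockdown 4.

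TIE1, the orphan partner of TEK, lies on chromosome 1 from 43300993 to 43323108 (plus strand). It ran from 0.569 through a median of 1.04 to 1.84 CPM in control and from 0.219 through 0.902 to 2.68 CPM in knock-down. The groups overlapped, again with knockdown 4 and knockdown 1 highest, and the lowest was knockdown 3. The log2 fold change was 0.04 (SE 0.505, 95% interval −1.03 to 1.12, edgeR adjusted p = 0.985), and −0.38 without knockdown 4.

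TEK, the angiopoietin receptor, lies on chromosome 9 from 27109141 to 27230175 (plus strand). It ran from 0.116 through a median of 0.444 to 0.921 CPM in control and from 0 through 0.263 to 0.767 CPM in knock-down. Knockdown 2 held no count, and the groups overlapped. Levels followed the title letter more than the group: the means were 0.188 and 0.149 CPM in D libraries and 0.611 and 0.659 CPM in E libraries, control first. KDR, TIE1 and FLT1 also had higher means in E than in D libraries in both groups, for TIE1 and FLT1 in knock-down through knockdown 4. Among the ligands, the same held for VEGFA, VEGFC and ANGPT2, in knock-down again through knockdown 4, but not for VEGFB or ANGPT1. The FLT4 control mean was lower in E. For KDR the means were 0.75 and 1.13 CPM in D and 1.46 and 1.95 CPM in E libraries, control first. With the letter as a covariate the edgeR log2 fold change was 0.50 for KDR and 0.25 for TIE1. The sources used here do not say what the letter marks, and these differences between letters were not tested.

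**Figure D4:**
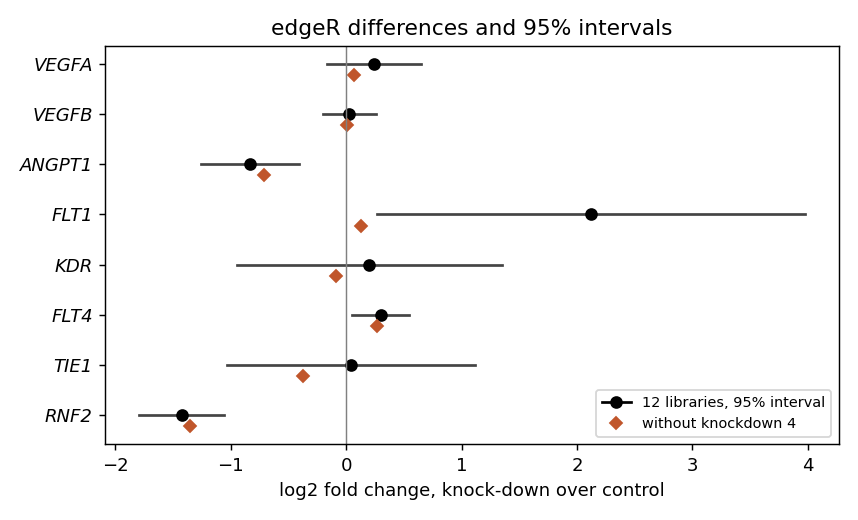
Log2 fold change, knock-down over control, for the 7 tested genes and for RNF2, with the edgeR 95% interval as a line over all 12 libraries and an orange diamond for the value without knockdown 4. The FLT1 value drops from 2.12 to 0.13 without that library, and of the genes other than RNF2 the intervals of ANGPT1, FLT1 and FLT4 leave out 0 before adjustment.

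Knockdown 4 was the highest library for several of the 10 genes. It also had the highest sums of 3 marker lists: pericyte and smooth muscle, macrophage and leukocyte, and Ewing sarcoma cell markers (3406 CPM). It held the highest value of VEGFA, FLT1, ANGPT2 and TIE1 of all 12 libraries, and the lowest of ANGPT1. It was the highest library for 14 of the 28 endothelial markers, for example PECAM1 (0.724 CPM), CDH5 (2.17) and CD34 (1.70). Among tested genes it was the highest for 6 of the 13 endothelial markers and for 16.7% of all genes. Its summed endothelial level, 211.5 CPM, was below the 277 CPM of control 1. Pericyte and smooth muscle markers summed to 128 to 234 CPM in control and 103 to 259.7 CPM in knock-down, with knockdown 4 highest. In that list of 15, 11 passed the filter, 0 were called and the most abundant were NOTCH3, PDGFRB, ACTA2 (5.86 to 50.2 CPM) and MCAM. Macrophage and leukocyte markers, led by LYZ (1.67 to 15.3 CPM), AIF1, CSF1R and PTPRC, summed to 6.75 to 27.9 CPM in control and 8.41 to 36.5 CPM in knock-down, again highest in knockdown 4. FCGR3A, CD3E and S100A8 were at 0 in all libraries, and 0 of the 7 tested were called. Fibroblast markers, led by COL3A1, COL1A1, FBLN1 and COL1A2, summed to 638 to 1745 CPM in control and 529 to 1731 CPM in knock-down, and 0 of 8 tested were called. The part of these cells in the levels of the 10 genes was not tested beyond the fits with the endothelial mean and without knockdown 4.

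**Figure D5:**
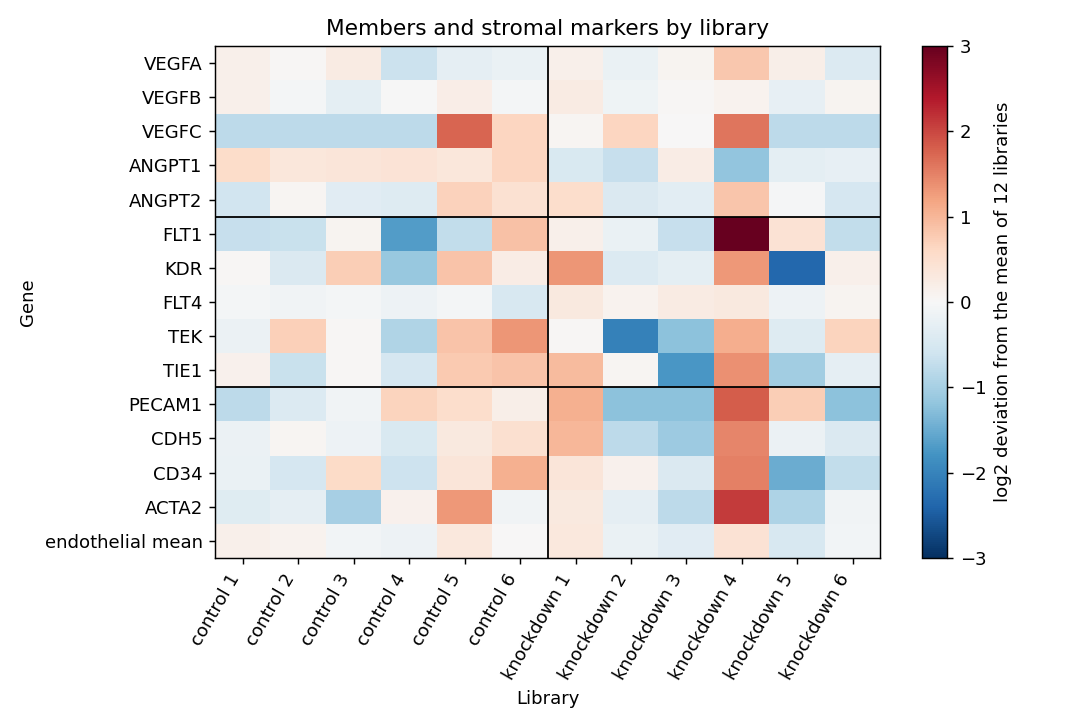
Deviation of log2(CPM + 0.1) from its mean over the 12 libraries for the 5 ligands, the 5 receptors and 4 stromal markers, and of the endothelial mean in its own log2 units, with libraries in columns and red above and blue below the mean; colours saturate at 3. ANGPT1 is blue in every knock-down library except knockdown 3, whereas KDR, TIE1, PECAM1, CDH5 and CD34 vary by library within both groups.

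Across the 12 libraries, KDR and TIE1 varied along with the endothelial mean. Pearson r was 0.82 for KDR (Spearman 0.76) and 0.82 for TIE1 (Spearman 0.80), and 0.65 and 0.73 without the 2 farthest libraries. KDR and TIE1 correlated with each other at 0.73 (Spearman 0.81). VEGFB had r = 0.70 (Spearman 0.72, 0.61 without the 2 libraries), VEGFA 0.33 and FLT1 0.40, each at 0.21 or below without those 2, and ANGPT1 had −0.17. VEGFA and FLT1 correlated at 0.80 (Spearman 0.72), with knockdown 4 highest in both, and ANGPT1 and FLT4 at −0.69 (Spearman −0.70). These values describe libraries that share depth, scaling and, in pairs, title numbers, and carry no test.

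The genes most alike in pattern were named by Pearson r of log2 CPM over the 12 libraries, as a description. For ANGPT1 they were FUT4, a fucosyltransferase, at 0.92, CLINT1, which binds clathrin, at 0.91, and the zinc finger gene ZNF501 at 0.89 (Spearman 0.66). For FLT4 they were PLEKHA4, LIN7B and AVPI1, at 0.94 each. VEGFA lay closest to ZSCAN18 (0.91), SLC43A1 (0.90) and NRBP2 (0.90), and VEGFB to AC046185.3 (0.96), TIMM13 (0.94) and FAM189B (0.93). FLT1, far highest in knockdown 4, lay closest to IL2RG (0.95, Spearman 0.86), the collagenase gene MMP1 (0.94, Spearman 0.72) and TMEM268 (0.94, Spearman 0.88). The part of that 1 library in these values was not tested. KDR lay closest to PIK3C2B (0.90), GMIP (0.88) and PCDHAC1 (0.88). For TIE1 all 3 were annotated as processed pseudogenes, ARF4P1 (0.96), RPL15P18 (0.93) and EIF4A1P4 (0.93), whose reads may be shared with their parent genes.

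The other genes of the pathway were followed in 6 lists, read against all genes tested. Of all genes tested, 0.297% were called by edgeR, 52.4% had a positive log2 fold change and the median was 0.01. An unadjusted p below 0.05 was reached by 12.7%, and 0.575% were lower in knock-down without overlap. DESeq2 called 2.22% of the genes it tested. Among 14 tested co-factors (of 16), 0 were called by edgeR or by DESeq2, 3 had an unadjusted p below 0.05, 7 were positive and the median was 0.04. PGF, placental growth factor and a ligand of FLT1, averaged 170.4 ± 56.7 CPM across controls against 108 ± 51.6 CPM after knock-down (SD, n = 6), and edgeR gave a log2 difference of −0.66 (adjusted p = 0.360). Its libraries ran from 90.8 to 259 CPM and from 49.1 to 199.7 CPM, so the groups overlapped. SVEP1, a matrix protein that binds TIE1, had a log2 fold change of −1.07 (adjusted p = 0.192), and NRP1, a co-receptor of VEGFA, one of 0.28 (adjusted p = 0.406). SDC2, a heparan sulphate proteoglycan, had 3.80 (adjusted p = 0.266), with 24.5 CPM in knockdown 4 and 1.09 CPM or less in the other knock-down libraries.

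Ligand processing held the only call. PCSK6, a proprotein convertase that cleaves secreted precursors, fell from a control mean of 11.1 ± 1.41 CPM to 6.72 ± 0.862 CPM after knock-down (SD, n = 6), with a log2 fold change of −0.72 (edgeR adjusted p = 0.0359). The controls spanned 8.84 to 12.6 CPM and the knock-down tumours 5.75 to 8.26 CPM, without overlap. DESeq2 and limma-voom called it too, but the call was lost without a low-count filter, with counts summed by title number, with the title letter as a covariate, and when any library other than control 6 or knockdown 4 was left out (edgeR adjusted p up to 0.105 for these last). Of 10 tested genes of 13, 1 was called lower and 0 higher, 6 were positive and the median was 0.06. ADAM17, a shedding protease, had −0.26 (adjusted p = 0.353), PLAU, urokinase, 1.34 (adjusted p = 0.388, with 6.30 CPM in knockdown 4), and MMP14 0.57 (adjusted p = 0.448).

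Receptor signalling genes numbered 39, all tested, with 0 called by edgeR and 1, PIK3CB, by DESeq2, against 2.22% over all genes. At an unadjusted p below 0.05 there were 8, against 12.7% over all genes, and 14 were positive with a median of −0.06. PIK3CB, a catalytic subunit of phosphoinositide 3-kinase, averaged 43.6 ± 5.67 CPM across controls against 30.4 ± 3.42 CPM after knock-down (SD, n = 6), without overlap, but was not called (log2 fold change −0.52, edgeR adjusted p = 0.0640). NOS3, endothelial nitric oxide synthase, had 0.93 (adjusted p = 0.215), the scaffold IQGAP1 −0.26 (adjusted p = 0.279) and the adaptor SH2D2A, which binds KDR, 0.53 (adjusted p = 0.280).

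Oxygen sensing, which controls VEGFA, showed 0 calls by edgeR or DESeq2 among 17 tested genes of 18. Of them 2 had an unadjusted p below 0.05, 8 were positive and the median was −0.01. The prolyl hydroxylases EGLN3 and EGLN1, which mark hypoxia-inducible factors for decay, differed by 0.44 and 0.31 on the log2 scale (edgeR adjusted p = 0.322 for EGLN3 and 0.348 for EGLN1). ELOC, a subunit of the VHL ubiquitin ligase, had 0.38 (adjusted p = 0.430) and the acetyltransferase EP300 −0.30 (adjusted p = 0.491).

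Other secreted angiogenic factors gave 0 calls by edgeR and 1 by DESeq2, ANGPTL4, among 28 tested of 35, with 4 at an unadjusted p below 0.05, 17 positive and a median of 0.08. ANGPTL4, a secreted regulator of lipoprotein lipase, averaged 10.1 ± 1.89 CPM across controls against 16.4 ± 4.73 CPM after knock-down (SD, n = 6), and edgeR gave a log2 difference of 0.69 (adjusted p = 0.167). JAG1, a Notch ligand, had −0.47 (adjusted p = 0.231), LGALS3, a galectin, 0.38 (adjusted p = 0.350) and HBEGF, an EGF receptor ligand, 1.62 (adjusted p = 0.377, with 9.41 CPM in knockdown 4). Secreted inhibitors of vessel growth gave 0 calls by edgeR and 1 by DESeq2, SERPINF1, among 18 tested of 25. At an unadjusted p below 0.05 there were 6, against 12.7% over all genes, and 11 were positive with a median of 0.16. SERPINF1, the vessel inhibitor PEDF, averaged 34.4 ± 16.2 CPM across controls against 84.1 ± 39.5 CPM after knock-down (SD, n = 6), and edgeR gave a log2 difference of 1.29 (adjusted p = 0.145). Of that list, 10 of the 18 tested (55.6%) were highest in knockdown 4, against 16.7% of all genes tested. This was not particular to the inhibitors. The share was 42.9% in co-factors, 40% in ligand processing, 39.3% in other secreted factors and 23.1% in receptor signalling. In oxygen sensing it was 11.8%. COL4A2 was among the 10 inhibitors (149 CPM in knockdown 4, at most 4.83 CPM in the other knock-down libraries, log2 fold change 3.15, adjusted p = 0.317). ADAMTS8 had −1.22 (adjusted p = 0.231) and SEMA3A −0.43 (adjusted p = 0.284).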

How the data were processed

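RNA from 6 control and 6 RING1B knock-down tumours was sequenced from TruSeq stranded mRNA libraries, per the labels' protocols. The authors deposited 1 table of raw read counts per gene, with exon lengths. Per the submitters' processing notes, the tools included FastQC, STAR 2.6.0a (hg38), featureCounts, limma 3.40.2 and R 3.6.0. How reads were assigned by strand, what was done with multi-mapping reads and whether host reads were removed is not given in the sources used here. Names and exons of all 57169 genes were those of GENCODE 29, which gave the coordinates.

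Counts were analysed in R 4.3.3 with edgeR 4.0.16: filterByExpr, TMM factors (0.921 to 1.04), robust quasi-likelihood fits and Benjamini-Hochberg adjustment over 16519 genes, with no covariate. CPM uses TMM-scaled totals, and log2 CPM a prior count of 2. limma 3.58.1 and DESeq2 1.42.0 served as alternatives, and the test was tried on simulated data. No pair of libraries within a group was a repeat (lowest chi-square per degree of freedom 12.1 over genes with at least 20 summed counts). Titles repeat some numbers within a group and none across groups.

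The 10 genes and the gene lists were chosen with earlier results of these data known. Named genes were RNF2, the 10 genes, up to 4 tested genes with the smallest adjusted p of each pathway list, up to 4 with the highest mean CPM of each cell marker list, and the 3 most alike in pattern to each tested one of the 10. Named outside this rule were PECAM1, CDH5, VWF, CD34, GPIHBP1, PROX1, LYVE1, CLDN5, EMCN, RASIP1 and NPY1R, and markers at 0. Promoter windows were the 250 bases before the start in RefSeq, and that of FLT1 was cut to 233 at the gene start of GENCODE 29.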

Additional observations from a re-analysis of the deposited data

Results flagged for a closer look

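In each group of 6 libraries, the highest or lowest value was set against the others by Dixon's ratio, the gap to the nearest library over the group's range, with a limit of 0.625. Of 72 groups, 11 passed it. The limit passes about 1 in 20 groups of normally spread values. That rate cannot be set against the 11, because some levels lie near 0 and the pathway genes were picked by their p in these data. For the 10 genes these were FLT1 in knockdown 4 (10.13 CPM, the others at most 0.835), FLT4 in control 6 (12.52 CPM, the others at least 15.6) and VEGFC in control 5 (0.4773 CPM, the others at most 0.168). In the pathway lists, knockdown 4 stood above the other knock-down libraries in COL4A2 (149.1 CPM), SDC2 (24.53 CPM), HBEGF (9.41 CPM), PLAU (6.302 CPM) and JAG1 (53.69 CPM). For JAG1 that value lay within the control range of 38.7 to 56.0 CPM, and the other knock-down libraries, at most 34.6 CPM, lay below it. Among controls, NRP1 in control 2 (40.63 CPM), NOS3 in control 5 (2.705 CPM) and ELOC in control 6 (72.02 CPM) stood above the rest.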

How the results depend on the processing

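The number of genes called moved from 49 to 351 with DESeq2, 91 with the title number as a random effect, 7 with counts summed by title number, 28 with the title letter and 150 with the endothelial mean as a covariate, 108 without control 6, knockdown 4 and knockdown 5 (chosen after seeing the data), and 3 at an adjusted p below 0.01. Leaving out each library in turn gave 16 to 79, the latter without knockdown 4. Of the 10 genes, 0 were called, and 1, ANGPT1, with DESeq2, the random effect, the endothelial covariate, and in the leave-one-out fits 0 to 1. RNF2 stayed lower and below an adjusted p of 0.05 in every alternative run. The log2 fold changes near 0 turned sign. KDR went to −0.15 with limma-voom and −0.16 with the random effect (leave-one-out −0.13 to 0.44). TIE1 went to −0.28 with limma-voom, −0.30 with the random effect and −0.0227 without the 3 libraries (leave-one-out −0.38 to 0.25). VEGFA went to −0.0113 without the 3 libraries, and VEGFB lay between −0.0311 and 0.0776 in leave-one-out fits. ANGPT2, which the filter left out with all 12 libraries, passed it in 10 leave-one-out fits. Its log2 fold changes there ran from −0.18 to 0.25 (edgeR adjusted p of 0.816 or above). The cause of these changes of sign was not tested. FLT1 failed the filter without the 3 libraries. Without a stated strand setting or host-read removal, levels near the limit of 3 counts are uncertain.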
